A study of Mus musculus with 8 samples.

Results

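DNA replication genes were followed through 8 RNA-seq libraries of haemogenic endothelium, vessel-lining cells that give rise to the first blood cells. The set holds 47 listed genes of the 41128 in the deposited count table, and every member was found by its gene name. It covers the licensing of origins (9 genes), the replicative helicase (12), the polymerases and primase (8), the sliding clamp with its loader and the single-strand binding protein RPA (9), the joining of Okazaki fragments (3), nucleotide supply (4) and chromatin assembly (2). The cells were differentiated from mouse embryonic stem cells labelled as strain C57BL/6. A line with lox sites in both copies of Hdac2 was treated with 4-hydroxytamoxifen (4OHT, group Hdac2 lox/lox 4OHT) or with its solvent ethanol (EtOH, group Hdac2 lox/lox EtOH). A line with lox sites in both copies of Hdac1 was treated in the same ways (Hdac1 lox/lox 4OHT and Hdac1 lox/lox EtOH). Hdac1 and Hdac2 encode histone deacetylases, and 4OHT is widely used to switch on a tamoxifen-dependent Cre recombinase. The labels name the deletion as the design, but they do not give the Cre, the number of clones per line, or the day and sort of the harvest. Each group had 2 libraries, and no label says that they came from separate cultures, so p-values here reflect just how much these samples vary, and that variation may be technical.

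Before a cell divides, the origin recognition complex marks the places where copying may start, and Cdc6 and Cdt1 load the ring of Mcm proteins there. In S phase Cdc45 and the Gins proteins join the Mcm ring to form the working helicase. Primase, the polymerases, the clamp Pcna and its loader Rfc then copy both strands, while Rpa covers exposed single strands. Most of these genes are transcribed as cells approach S phase, and E2F transcription factors are known to drive many of them. The embryonic blood lineage, above all the early red cell lineage, is known for rapid division.

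Total counts ranged from 10215792 to 19552380 per library, and a member had between 88 and 11022 counts in any library. Levels are TMM-scaled counts per 1000000 (CPM). Fold changes are log2 values, tested by quasi-likelihood in edgeR, and p-values were adjusted by Benjamini and Hochberg over the 14179 genes tested. Genes said to rise or fall passed an adjusted p of 0.05. The counts of Hdac2 (149 and 149 CPM in Hdac2 lox/lox 4OHT, against 165 and 150.5 CPM in Hdac2 lox/lox EtOH) did not pass the test (-0.08, adjusted p = 0.672), and the labels do not say which exons the lox sites flank, so the counts do not check the deletion. Those of Hdac1 (6.99 and 7.12 CPM in Hdac1 lox/lox 4OHT, against 5.78 and 5.60 CPM in Hdac1 lox/lox EtOH) do not either, and Gm10093 is a near-identical copy. The groups are therefore named as labelled. Endothelial markers of the labelled cell type (Cdh5, Pecam1, Kdr, Tek, Kit, Runx1, Tal1 and Gata2) were present in every library, with sums of 2602 to 6870 CPM, and those of pluripotent cells summed to at most 4.11 CPM. Hdac2 lox/lox EtOH replicate 2 stood apart by Ddx3y, a Y-linked gene, at 4.58 CPM against at most 0.889 CPM in the other 3 libraries of that line and at least 25.8 CPM in those of the Hdac1 line.

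In the Hdac2 line the replication genes fell together in the libraries labelled 4OHT. The test called 34 of 47 members lower and 1 higher, where 17.2% of all genes tested were called lower and 18.9% higher. The median log2 fold change of the members was -0.73, beside -0.02 over all genes, and 18 members fell by at least 2-fold. Tk1, the thymidine kinase that salvages thymidine for DNA synthesis, fell furthest, and Rfc1, the large subunit of the clamp loader, was the only member that rose. In 43 of 47 members both 4OHT libraries lay below both EtOH libraries of the Hdac2 line, as they did in 39.7% of all genes. In 38 members they lay below all 6 other libraries, as in 18.8% of all genes. The 47 members together took 0.309% and 0.309% of the counts in Hdac2 lox/lox 4OHT, against 0.506% and 0.586% in Hdac2 lox/lox EtOH. In bulk RNA, fewer cycling cells and less of each transcript per cell cannot be told apart. Adjusted p-values of called members lay between 0.0081 and 0.046, and leaving out a library of the Hdac2 line ended most calls. Without Hdac2 lox/lox 4OHT replicate 1, 5 members were called (Tk1, Cdc6, Orc5, Gins1 and Rfc1), and without Hdac2 lox/lox 4OHT replicate 2, Hdac2 lox/lox EtOH replicate 1 or Hdac2 lox/lox EtOH replicate 2 none was. In those 4 fits 29, 34, 38 and 28 members kept an unadjusted p under 0.05, the median stayed between -0.85 and -0.69, and the calls over all genes dropped to 826, 91, 116 and 0.

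**Figure D1:**
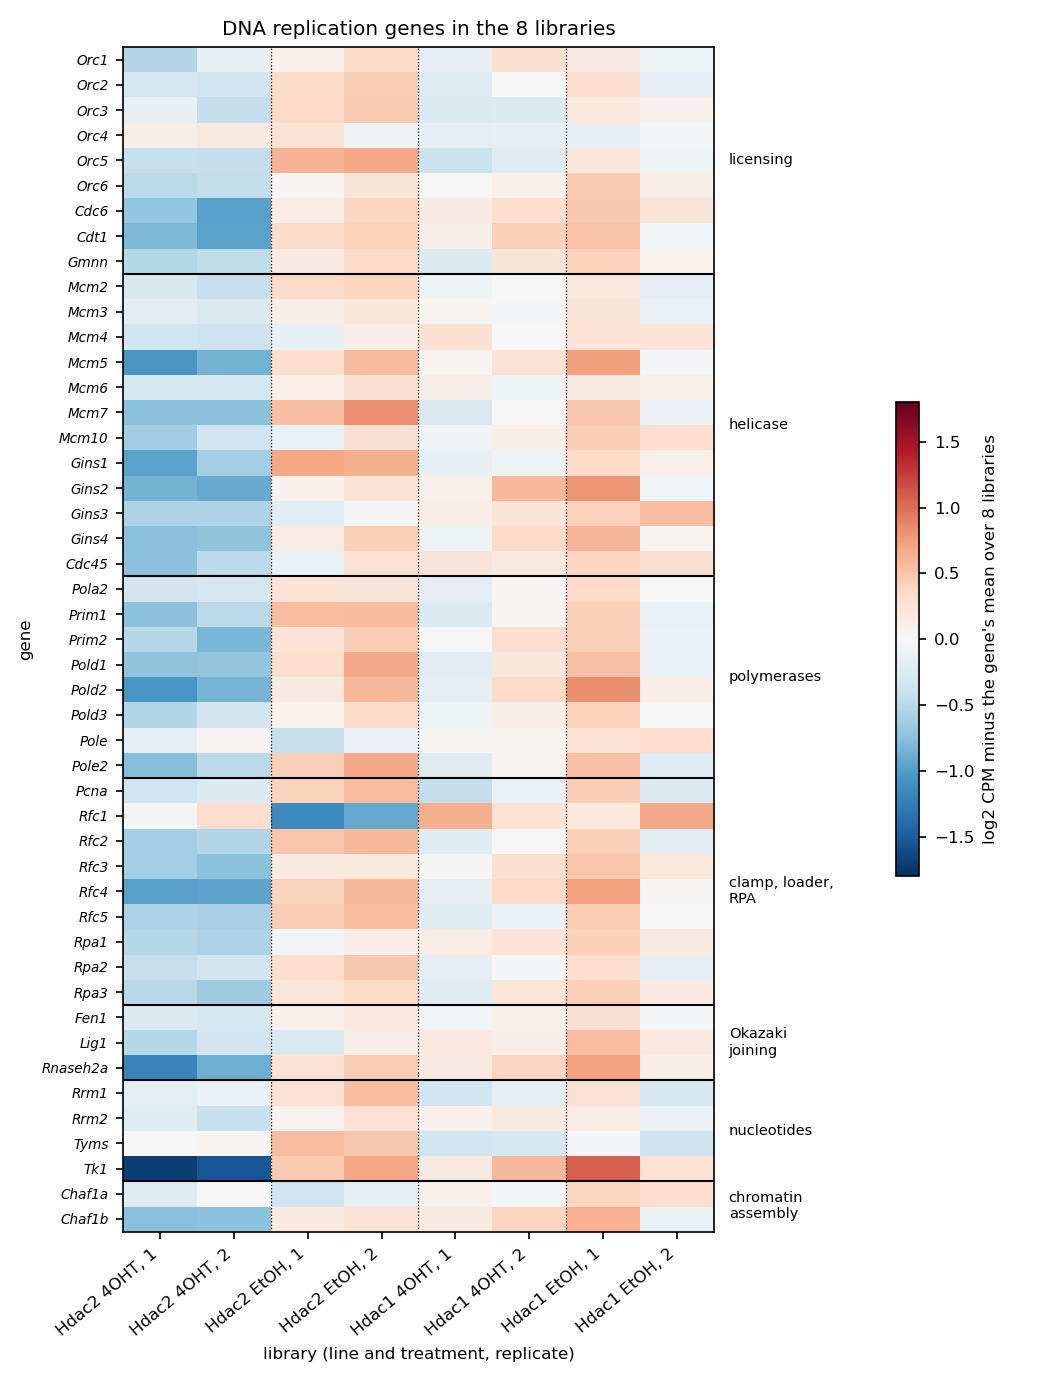
Level of each of the 47 DNA replication genes (rows, by step) in each of the 8 libraries (columns), as log2 CPM minus the gene's mean over the 8 libraries (colour). Both Hdac2 4OHT columns are blue for most rows. Rfc1 has the clearest opposite pattern, lowest in both Hdac2 EtOH columns. Pole and Chaf1a also have their lowest group mean there, but their Hdac2 EtOH and 4OHT libraries overlap.

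RefSeq promoter windows (build GRCm38.p6, 250 bases before to 50 after each start) were found for 39 of the 47 members, and they are shown here because the members moved together. An E2F motif was searched as TTTCCCGC, TTTGGCGC, TTTCGCGC or TTTGCCGC on both strands, and a CCAAT box as CCAAT on both strands. An E2F motif was present in 14 of 39 member promoters (35.9%), beside 4.83% of the 9730 tested genes with a window. Members that fell held it in 10 of 28 promoters, and the other members in 4 of 11. By step it was in 5 of 8 helicase, 4 of 8 licensing and 3 of 6 polymerase promoters, in 1 of 8 for clamp, loader and RPA, in 1 of 3 for Okazaki fragment joining, and in 0 of 4 for nucleotide supply and 0 of 2 for chromatin assembly. A CCAAT box was present in 61.5% of member promoters, beside 42.9% of tested genes, and in 8 of 8 helicase promoters. The cell cycle homology region, searched as TTTGAA or TTCGAA on both strands, was in 17.9% of member promoters and 16.0% of those of tested genes. A match is a description of letters and not of binding. Other forms of these motifs were not searched, so a window without a match may still hold a site. A gene with several windows counted if any of them held the motif. The 160 bases before the RefSeq start follow, in lower case with E2F motifs and CCAAT boxes in capitals. First come 4 members that fell (Mcm6, Mcm5, Cdc6, Orc3) and 2 that did not pass the test (Gins3, Orc1), all with an E2F motif there. They are followed by Tk1 and Rfc1, the members at the extremes, whose windows held no E2F motif. In Mcm6 and in Mcm5 a pair of E2F motifs overlap and are printed as a run of 12 capitals. A RefSeq start can differ from the gene bounds of the count table. By those bounds the Cdc6 stretch lies wholly inside the gene, and the stretches of Tk1, Rfc1, Orc1 and Orc3 lie partly inside.
Mcm6, chr1:128359706-128359865, minus strand: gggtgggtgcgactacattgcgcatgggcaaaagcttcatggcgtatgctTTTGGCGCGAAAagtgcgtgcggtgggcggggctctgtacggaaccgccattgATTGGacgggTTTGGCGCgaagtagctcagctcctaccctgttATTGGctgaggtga
Mcm5, chr8:75109349-75109508, plus strand: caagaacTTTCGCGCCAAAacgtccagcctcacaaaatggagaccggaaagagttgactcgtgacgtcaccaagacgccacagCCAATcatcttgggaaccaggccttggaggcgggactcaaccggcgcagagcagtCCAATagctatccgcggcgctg
Cdc6, chr11:98907991-98908150, plus strand: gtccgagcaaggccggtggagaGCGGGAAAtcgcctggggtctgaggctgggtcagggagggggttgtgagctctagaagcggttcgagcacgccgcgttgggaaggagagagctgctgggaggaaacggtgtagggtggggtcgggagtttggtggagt
Orc3, chr4:34614943-34615102, minus strand: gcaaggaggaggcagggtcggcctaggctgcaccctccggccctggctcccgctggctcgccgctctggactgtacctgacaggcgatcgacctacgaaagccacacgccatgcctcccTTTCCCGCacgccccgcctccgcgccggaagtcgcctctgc
Gins3, chr8:95633399-95633558, plus strand: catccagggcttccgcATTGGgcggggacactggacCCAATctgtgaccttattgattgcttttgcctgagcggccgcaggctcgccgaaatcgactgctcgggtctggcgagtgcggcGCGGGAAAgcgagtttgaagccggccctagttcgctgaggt
Orc1, chr4:108579294-108579453, plus strand: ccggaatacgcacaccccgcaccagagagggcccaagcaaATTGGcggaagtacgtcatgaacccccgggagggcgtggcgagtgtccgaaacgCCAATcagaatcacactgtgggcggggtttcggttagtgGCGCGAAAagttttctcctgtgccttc
Tk1, chr11:117826015-117826174, minus strand: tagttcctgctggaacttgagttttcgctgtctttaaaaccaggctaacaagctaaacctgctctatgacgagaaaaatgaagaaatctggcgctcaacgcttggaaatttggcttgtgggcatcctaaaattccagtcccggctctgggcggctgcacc
Rfc1, chr5:65335640-65335799, minus strand: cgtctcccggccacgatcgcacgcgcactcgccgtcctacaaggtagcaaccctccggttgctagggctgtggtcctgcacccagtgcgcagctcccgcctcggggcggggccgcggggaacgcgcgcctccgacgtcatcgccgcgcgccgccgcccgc

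Among the 9 licensing genes, 7 fell with 4OHT in the Hdac2 line: Orc2, Orc3, Orc5, Orc6, Cdc6, Cdt1 and Gmnn. Cdt1 (chromosome 8, 122568015 to 122573128, mm10), which carries the Mcm ring to origins, stood at 61.2 and 55.0 CPM in the 4OHT libraries of the Hdac2 line, against 134 and 143 CPM in its EtOH libraries (log2 fold change -1.25 ± 0.22 SE, adjusted p = 0.0103). The Hdac1 line, at 117 and 145 CPM with 4OHT and 152 and 104 CPM with EtOH, overlapped the Hdac2 EtOH libraries. Cdc6 (chromosome 11, 98907801 to 98923940), its partner in loading, stood at 44.9 and 37.5 CPM in the 4OHT libraries of the Hdac2 line, against 81.1 and 96.5 CPM in its EtOH libraries (-1.11 ± 0.18 SE, adjusted p = 0.00905). Both 4OHT libraries were below the other 6, and the Hdac1 line stood at 81.4 and 90.9 CPM with 4OHT and 103 and 86.3 CPM with EtOH. Of the origin recognition complex, Orc5 (chromosome 5, 22486485 to 22550429) changed most, with 29.1 and 28.6 CPM in the 4OHT libraries of the Hdac2 line, against 59.6 and 61.9 CPM in its EtOH libraries (-1.07 ± 0.16 SE, adjusted p = 0.00868). Its 4OHT libraries were the lowest of the 8, but little below those of the Hdac1 line, at 29.6 and 33.4 CPM with 4OHT. With EtOH the Hdac1 line stood at 44.6 and 36.6 CPM, below both Hdac2 EtOH libraries. Gmnn encodes geminin, which holds Cdt1 back once copying has begun, and fell too. It stood at 15.6 and 16.3 CPM in the 4OHT libraries of the Hdac2 line, against 24.6 and 28.3 CPM in its EtOH libraries (-0.73 ± 0.22 SE, adjusted p = 0.0381), and at 18.8 and 26.2 CPM with 4OHT and 29.7 and 23.4 CPM with EtOH in the Hdac1 line.

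The remaining subunits of the complex were uneven. Orc2 and Orc3 changed by -0.72 and -0.69, and Orc6 by -0.60, and all 3 fell. Orc1, the subunit that comes and goes with the cell cycle, stood at 18.7 and 24.6 CPM in the 4OHT libraries of the Hdac2 line, against 28.5 and 34.6 CPM in its EtOH libraries, which did not pass the test (-0.54 ± 0.23 SE, adjusted p = 0.0946). Orc4 was the member nearest to 0 of all 47, with 39.6 and 40.5 CPM in the 4OHT libraries of the Hdac2 line, against 43.8 and 35.0 CPM in its EtOH libraries (0.02 ± 0.16 SE, adjusted p = 0.919). Its groups overlapped, its sign turned negative with upper quartile scaling (-0.11), and its counts may include reads of Acvr2a, which overlaps it on the other strand. Orc3 starts 13 bases from Rars2, an arginyl-tRNA synthetase gene on the other strand, which changed by -0.79. Other genes that start within 1000 bases of a member on the other strand varied. Prpf38a (beside Orc1, -0.75), Smyd4 (beside Rpa1, -0.81) and Pxmp2 (beside Pole, -1.76) fell. Vps35 (beside Orc6, -0.04), Abhd12 (beside Gins1, -0.29), Gm16039 (beside Rpa3, -0.26) and Prkdc (beside Mcm4, 0.42) did not pass the test.

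All 12 helicase genes had lower values with 4OHT in the Hdac2 line, and 8 of them fell. Gins1 (chromosome 2, 150905400 to 150931280), a subunit of the Gins complex, had 7.92 and 10.1 CPM in the 4OHT libraries of the Hdac2 line, against 25.02 and 24.1 CPM in its EtOH libraries (log2 fold change -1.45 ± 0.20 SE, adjusted p = 0.0084). The Hdac1 line lay between these levels, at 14.1 and 14.7 CPM with 4OHT and 19.8 and 16.6 CPM with EtOH. Mcm7 (chromosome 5, 138164583 to 138172422) and Mcm5 (chromosome 8, 75109528 to 75128439), subunits of the Mcm ring, fell by similar amounts. Mcm7 stood at 77.0 and 77.5 CPM in the 4OHT libraries of the Hdac2 line, against 188 and 227 CPM in its EtOH libraries (-1.43 ± 0.23 SE, adjusted p = 0.00868). Mcm5 stood at 176 and 201 CPM in the 4OHT libraries of the Hdac2 line, against 449 and 535 CPM in its EtOH libraries (-1.38 ± 0.26 SE, adjusted p = 0.0118). The Hdac1 line had Mcm7 at 108 and 129 CPM with 4OHT and 179.8 and 119.6 CPM with EtOH, and Mcm5 at 371 and 432 CPM with 4OHT and 601 and 358 CPM with EtOH, with EtOH replicate 1 the highest library of all 8 for Mcm5. Gins2, another Gins subunit, stood at 36.9 and 35.5 CPM in the 4OHT libraries of the Hdac2 line, against 70.1 and 78.9 CPM in its EtOH libraries (-1.04 ± 0.29 SE, adjusted p = 0.0289). Its Hdac1 line libraries spread widely, at 71.1 and 99.3 CPM with 4OHT and 115 and 64.5 CPM with EtOH.

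The other subunits of the Mcm ring had smaller values. Mcm2 changed by -0.72 and Mcm6 by -0.49, and both fell, while Mcm3 (-0.39 ± 0.17 SE, adjusted p = 0.0943) and Mcm4 (-0.37 ± 0.16 SE, adjusted p = 0.111) did not pass the test. Mcm4, the helicase gene with the smallest change, stood at 232 and 229.8 CPM in the 4OHT libraries of the Hdac2 line, against 272 and 324 CPM in its EtOH libraries, with no overlap between the groups. Per kilobase of the longest annotated transcript, Mcm5 was the highest of the 47 members in Hdac2 lox/lox EtOH with means of 55.7 CPM per kb in Hdac2 lox/lox 4OHT against 145.5 CPM per kb in Hdac2 lox/lox EtOH. Mcm3, at 72.9 CPM per kb with 4OHT against 95.6 CPM per kb with EtOH, was above Mcm5 in the 4OHT libraries. Gins4 changed by -1.02 and Cdc45, which joins Mcm and Gins, by -0.68, and both fell. Mcm10, which helps to activate the helicase, and Gins3 did not pass, at -0.57 ± 0.19 SE (adjusted p = 0.0508) and -0.45 ± 0.17 SE (adjusted p = 0.0688).

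**Figure D2:**
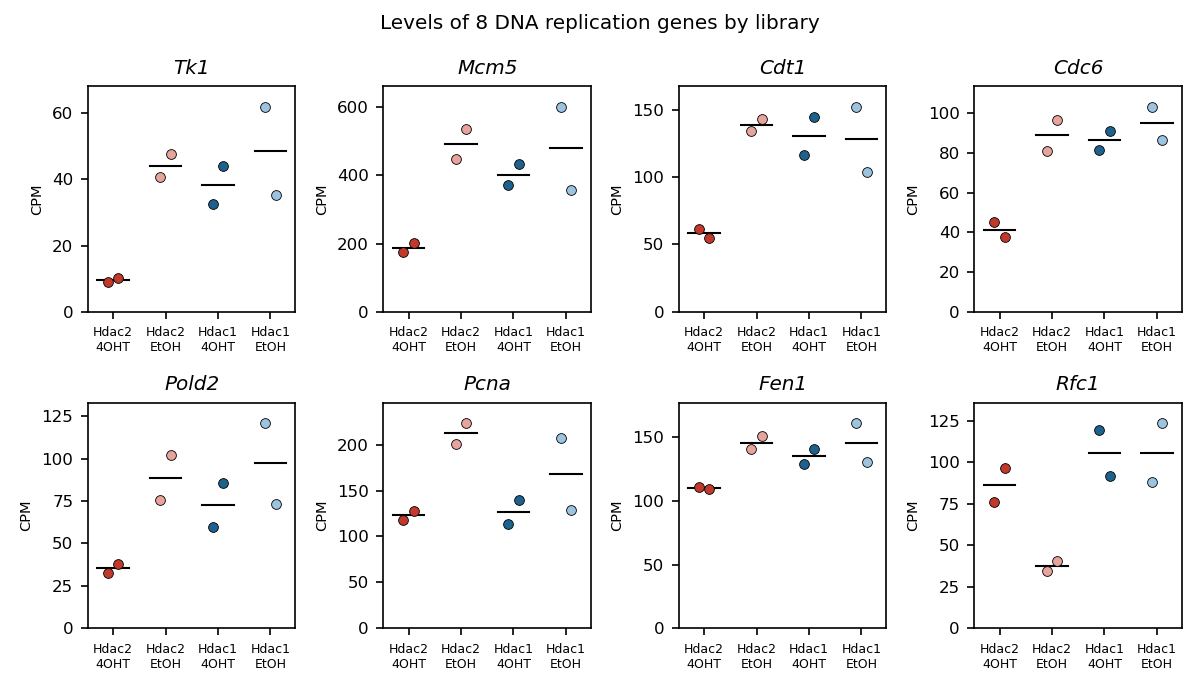
CPM of 8 DNA replication genes in each library (points), by group, with the group mean as a line and the vertical axis from 0. For Tk1, Mcm5, Cdt1, Cdc6, Pold2 and Fen1 both Hdac2 4OHT libraries are the lowest, for Pcna they lie among the Hdac1 4OHT libraries, and for Rfc1 the Hdac2 EtOH libraries are lowest.

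Of the 8 polymerase and primase genes 7 fell in the Hdac2 line, with a median of -1.09. Pold2 (chromosome 11, 5872180 to 5878292) and Pold1 (chromosome 7, 44532746 to 44548849) encode subunits of polymerase delta, which copies the lagging strand. Pold2 stood at 32.8 and 38.0 CPM in the 4OHT libraries of the Hdac2 line, against 75.4 and 102 CPM in its EtOH libraries (log2 fold change -1.33 ± 0.30 SE, adjusted p = 0.017). Pold1, the catalytic subunit, stood at 38.3 and 38.5 CPM in the 4OHT libraries of the Hdac2 line, against 78.8 and 101 CPM in its EtOH libraries (-1.23 ± 0.26 SE, adjusted p = 0.0145). For both genes the 4OHT libraries were below all others, and in the Hdac1 line Pold2 stood at 59.8 and 85.9 CPM with 4OHT and 121 and 73.4 CPM with EtOH and Pold1 at 54.5 and 72.7 CPM with 4OHT and 90.7 and 58.4 CPM with EtOH. Prim1, the catalytic subunit of primase, stood at 24.3 and 28.9 CPM in the 4OHT libraries of the Hdac2 line, against 59.8 and 60.4 CPM in its EtOH libraries (-1.18 ± 0.22 SE, adjusted p = 0.0119), and at 34.1 and 41.6 CPM with 4OHT and 54.4 and 37.1 CPM with EtOH in the Hdac1 line. Pole2, the second subunit of polymerase epsilon, stood at 11.8 and 14.3 CPM in the 4OHT libraries of the Hdac2 line, against 27.0 and 32.0 CPM in its EtOH libraries (-1.17 ± 0.28 SE, adjusted p = 0.0193), and at 17.1 and 20.6 CPM with 4OHT and 28.9 and 17.1 CPM with EtOH in the Hdac1 line. Prim2 changed by -1.01, Pold3 by -0.63 and Pola2, of the polymerase that extends primers, by -0.56, and all 3 fell.

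Pole, the catalytic subunit of polymerase epsilon, was the polymerase gene that did not fall. It stood at 35.6 and 41.0 CPM in the 4OHT libraries of the Hdac2 line, against 30.0 and 37.1 CPM in its EtOH libraries (0.19 ± 0.17 SE, adjusted p = 0.379), and the groups overlapped. The Hdac1 line stood at 40.6 and 40.9 CPM with 4OHT and 47.6 and 49.7 CPM with EtOH. At 7163 bases its transcript is the longest of the members, and once each library was corrected for transcript length, as described with the transcript lengths, Pole stood at -0.72 (adjusted p = 0.0264). Pxmp2, a gene of a peroxisomal membrane protein that starts 120 bases from Pole on the other strand, fell by 1.76 on the log2 scale.

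Of the 9 genes for the clamp, its loader and RPA, 8 fell and 1 rose. Rfc4 (chromosome 16, 23113943 to 23127737), a small subunit of the loader, stood at 8.61 and 8.80 CPM in the 4OHT libraries of the Hdac2 line, against 22.3 and 25.5 CPM in its EtOH libraries (log2 fold change -1.45 ± 0.29 SE, adjusted p = 0.0131). Rfc2 stood at 39.7 and 42.0 CPM in the 4OHT libraries of the Hdac2 line, against 85.6 and 91.0 CPM in its EtOH libraries (-1.11 ± 0.22 SE, adjusted p = 0.013). Rfc5 stood at 23.4 and 22.8 CPM in the 4OHT libraries of the Hdac2 line, against 47.4 and 50.3 CPM in its EtOH libraries (-1.08 ± 0.19 SE, adjusted p = 0.0102). All 4 small subunits of the loader, with Rfc3 at -0.84, fell. The Hdac1 line had Rfc4 at 15.2 and 21.6 CPM with 4OHT and 28.1 and 17.2 CPM with EtOH, Rfc2 at 52.1 and 60.6 CPM with 4OHT and 81.7 and 53.2 CPM with EtOH, and Rfc5 at 29.5 and 31.8 CPM with 4OHT and 46.98 and 34.6 CPM with EtOH.

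Rfc1 (chromosome 5, 65261852 to 65335670), the large subunit that makes the loader specific for Pcna, moved the other way. It stood at 75.9 and 96.4 CPM in the 4OHT libraries of the Hdac2 line, against 34.8 and 40.9 CPM in its EtOH libraries (1.19 ± 0.24 SE, adjusted p = 0.0133). The Hdac1 line had 119.6 and 91.8 CPM with 4OHT and 88.1 and 124 CPM with EtOH, so the Hdac2 EtOH libraries, and not the 4OHT libraries, stood apart from the other groups. Rpa3, the smallest subunit of RPA, stood at 8.61 and 7.82 CPM in the 4OHT libraries of the Hdac2 line, against 14.1 and 15.7 CPM in its EtOH libraries (-0.86 ± 0.23 SE, adjusted p = 0.026), and at 10.5 and 14.2 CPM with 4OHT and 16.4 and 13.5 CPM with EtOH in the Hdac1 line. Rpa1 and Rpa2 changed by -0.58 and -0.78, and both fell. Pcna (chromosome 2, 132249162 to 132253314), the clamp itself, stood at 118 and 128 CPM in the 4OHT libraries of the Hdac2 line, against 201 and 223 CPM in its EtOH libraries (-0.79 ± 0.24 SE, adjusted p = 0.0382). Its 4OHT level overlapped that of Hdac1 lox/lox 4OHT (113 and 139.9 CPM), and Hdac1 lox/lox EtOH stood at 208 and 129 CPM. Pcna-ps2, a copy with 99.2% identity over 51.4% of the Pcna transcript, held counts equal to 94.0% of Pcna's and fell by 0.83.

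Of the 3 genes that finish Okazaki fragments 1 fell. Rnaseh2a (chromosome 8, 84956610 to 84969767), the catalytic subunit of the enzyme that removes RNA from DNA, stood at 16.4 and 20.5 CPM in the 4OHT libraries of the Hdac2 line, against 45.0 and 51.8 CPM in its EtOH libraries (log2 fold change -1.39 ± 0.24 SE, adjusted p = 0.0103). The Hdac1 line stood at 41.7 and 49.3 CPM with 4OHT and 62.2 and 41.1 CPM with EtOH, above both Hdac2 4OHT libraries. Fen1, the flap nuclease, stood at 111 and 109 CPM in the 4OHT libraries of the Hdac2 line, against 141 and 151 CPM in its EtOH libraries, without overlap but short of the threshold (-0.40 ± 0.16 SE, adjusted p = 0.08), and at 129 and 141 CPM with 4OHT and 161 and 130.4 CPM with EtOH in the Hdac1 line. Lig1, the ligase that seals the fragments, stood at 82.3 and 92.7 CPM in the 4OHT libraries of the Hdac2 line, against 97.0 and 128 CPM in its EtOH libraries (-0.36 ± 0.20 SE, adjusted p = 0.18), and at 133 and 127 CPM with 4OHT and 172 and 133 CPM with EtOH in the Hdac1 line.

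Nucleotide supply held the largest fall of the set. Tk1 (chromosome 11, 117815526 to 117826092) stood at 9.0015 and 10.1 CPM in the 4OHT libraries of the Hdac2 line, against 40.6 and 47.6 CPM in its EtOH libraries (log2 fold change -2.20 ± 0.30 SE, adjusted p = 0.0081). The Hdac1 line stood at 32.5 and 43.9 CPM with 4OHT and 62.0 and 35.3 CPM with EtOH, so each of the 6 other libraries had more than 3 times the level of either Hdac2 4OHT library. Tyms, thymidylate synthase, stood at 98.9 and 101 CPM in the 4OHT libraries of the Hdac2 line, against 145 and 139 CPM in its EtOH libraries (-0.50 ± 0.16 SE, adjusted p = 0.046), and at 77.1 and 79.7 CPM with 4OHT and 97.9 and 76.0 CPM with EtOH in the Hdac1 line. Here the Hdac1 4OHT libraries were lower than the Hdac2 4OHT libraries. Rrm1 and Rrm2, the subunits of ribonucleotide reductase, had lower values without overlap but did not pass. Rrm1 stood at 254 and 263 CPM in the 4OHT libraries of the Hdac2 line, against 339 and 410.0 CPM in its EtOH libraries (-0.54 ± 0.21 SE, adjusted p = 0.0806), and at 222 and 254 CPM with 4OHT and 337 and 231 CPM with EtOH in the Hdac1 line. Rrm2 stood at 149.8 and 132 CPM in the 4OHT libraries of the Hdac2 line, against 182 and 209 CPM in its EtOH libraries (-0.47 ± 0.16 SE, adjusted p = 0.0545), and at 184 and 195 CPM with 4OHT and 191 and 162 CPM with EtOH in the Hdac1 line.

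Of the 2 genes of chromatin assembly factor 1, which places histones on new DNA, 1 fell. Chaf1b stood at 58.8 and 59.3 CPM in the 4OHT libraries of the Hdac2 line, against 111 and 118 CPM in its EtOH libraries (log2 fold change -0.96 ± 0.24 SE, adjusted p = 0.0229), below the Hdac1 line at 110.3 and 129 CPM with 4OHT and 153 and 90.6 CPM with EtOH. Chaf1a, its partner in the same complex, stood at 82.9 and 96.0 CPM in the 4OHT libraries of the Hdac2 line, against 75.5 and 85.8 CPM in its EtOH libraries (0.15 ± 0.16 SE, adjusted p = 0.464), with overlapping groups, and at 102 and 94.6 CPM with 4OHT and 127 and 118 CPM with EtOH in the Hdac1 line. Chaf1a overlaps Ubxn6 on the other strand, and its transcript of 5535 bases is among the longest of the set.

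**Figure D3:**
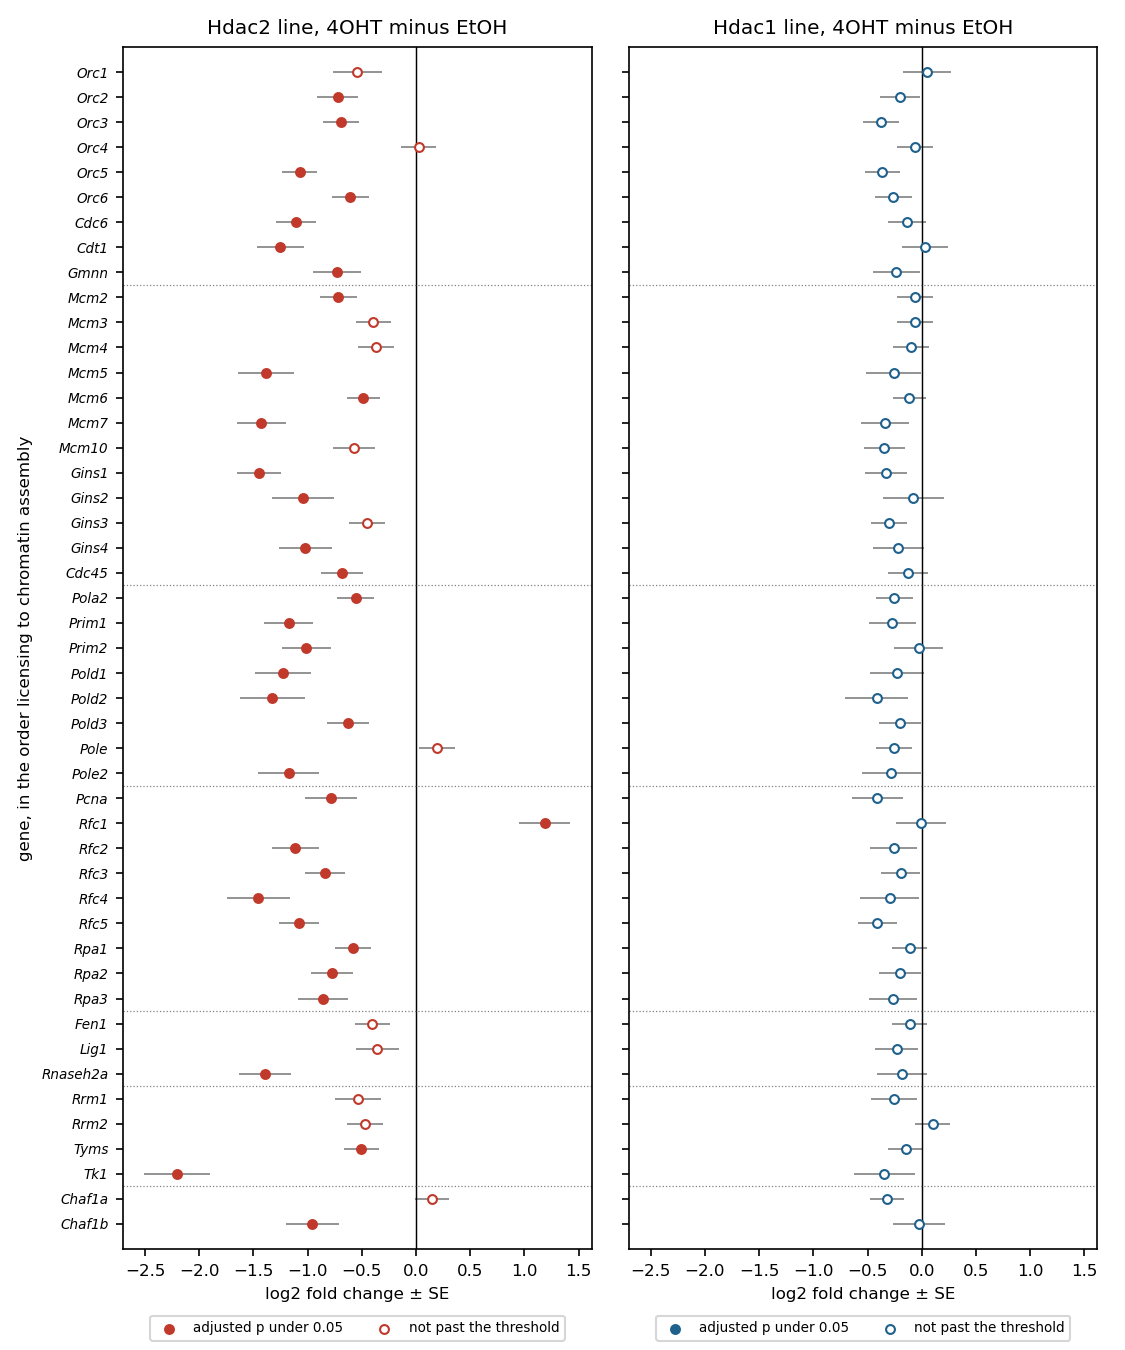
Log2 fold change ± SE of the 47 genes with 4OHT in the Hdac2 line (left) and in the Hdac1 line (right). Filled points passed an adjusted p of 0.05. In the Hdac2 line 34 filled points lie below 0 and Rfc1 above, and in the Hdac1 line no point is filled.

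Transcript length moved with the Hdac2 comparison over all genes. Among the other tested genes the median log2 fold change was -0.64 in the shortest of 10 equal bins of transcript length and 1.09 in the longest, and Spearman's rho between length and log2 fold change was 0.499 over 14122 genes with a length. Over the 47 members rho was 0.483. These are descriptions, since genes share the same libraries. The per-library slope of level on length, in log2 units per 10-fold length, was 0.50 and 0.69 in Hdac2 lox/lox 4OHT, against -0.85 and -0.63 in Hdac2 lox/lox EtOH, and ran from -0.43 to 0.46 in the Hdac1 line. In their own length bin 46 of 47 members lay below the median of the other genes, with Rfc1 the exception, and the median distance was -0.63. With length curves as offsets for each library, an analysis chosen after the data were seen, 34 members fell and Rfc1 rose, beside 20.1% of genes called lower and 14.1% called higher. The median of the members was again -0.73, while that over all genes moved from -0.02 to -0.09. The lists of members that fell shared 29 genes. Orc6, Gmnn, Cdc45, Pcna and Rpa3, with transcripts of at most 2143 bases, were called without the offsets and not with them. Mcm3, Mcm4, Mcm10, Pole and Rrm1, with transcripts of at least 3031 bases, were called with the offsets and not without. Tk1 stood at -1.85, Cdc6 at -1.52 and Rfc1 at 0.73 with the offsets. The part of the length trend in the members' change was not tested beyond these offsets.

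**Figure D4:**
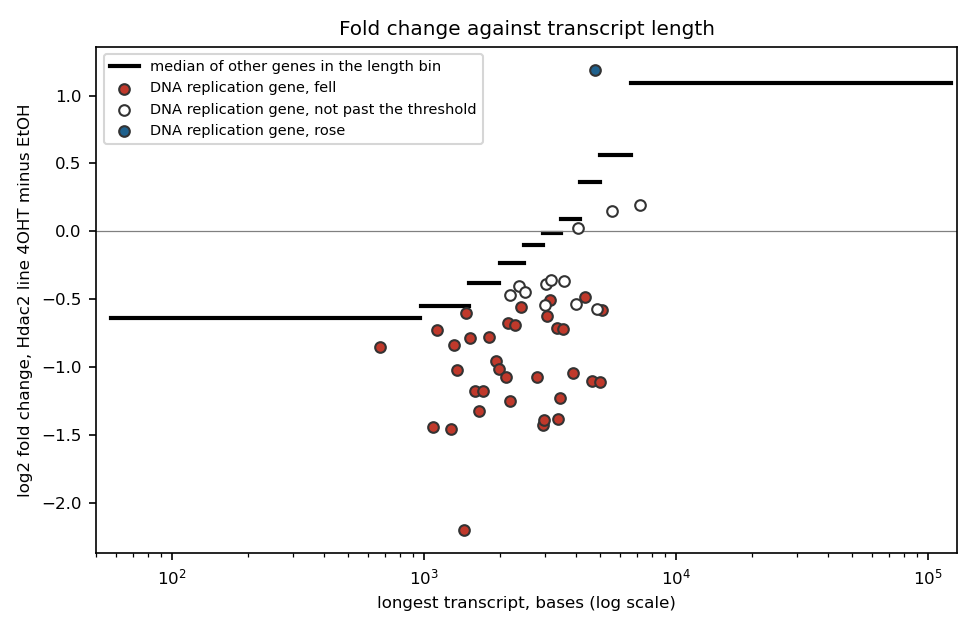
Log2 fold change in the Hdac2 line (4OHT minus EtOH) against the length of the longest transcript (log scale) for the 47 DNA replication genes (points), with the median of all other tested genes in each of 10 length bins (bars). The bars climb from -0.64 to 1.09, and every point but Rfc1 lies below the bar of its bin.

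Markers of other cells moved with the same comparison. The 8 erythroid markers summed to 367 and 226 CPM in Hdac2 lox/lox 4OHT, against 1707 and 1653 CPM in Hdac2 lox/lox EtOH, and 6 of the 8 fell. In the Hdac1 line they summed to 166 and 438 CPM with 4OHT and to 938 and 293 CPM with EtOH. The sum over the replication genes was 3289 and 3344 CPM in Hdac2 lox/lox 4OHT, against 5045 and 5715 CPM in Hdac2 lox/lox EtOH. In the Hdac1 line it was 4450 and 4785 CPM with 4OHT and 5881 and 4503 CPM with EtOH. The 8 endothelial markers summed to 5237 and 6870 CPM in Hdac2 lox/lox 4OHT, against 2602 and 2916 CPM in Hdac2 lox/lox EtOH. In the Hdac1 line they summed to 5577.5 and 4110.9 CPM with 4OHT and to 3806.9 and 5348.5 CPM with EtOH. The Hdac2 EtOH libraries were thus the lowest. Of these markers 3 rose in the Hdac2 line (Cdh5, Pecam1 and Kdr) and 1 fell (Tal1, -1.18). Tek and Gata2, with higher values, and Kit and Runx1, with lower values, did not pass the test. The 6 markers of smooth muscle and mesenchyme summed to 6476 and 4284 CPM in Hdac2 lox/lox 4OHT, against 2169 and 1513 CPM in Hdac2 lox/lox EtOH, with 3 of the 6 higher. The 6 of white blood cells summed to 59.7 and 47.6 CPM in Hdac2 lox/lox 4OHT, against 24.6 and 12.9 CPM in Hdac2 lox/lox EtOH, with 4 of the 6 higher. The 5 cardiomyocyte markers summed to 32.0 and 35.7 CPM in Hdac2 lox/lox 4OHT, against 12.3 and 9.17 CPM in Hdac2 lox/lox EtOH, with 2 of the 5 higher. The part of these cells in the change of the replication genes was not tested.

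**Figure D5:**
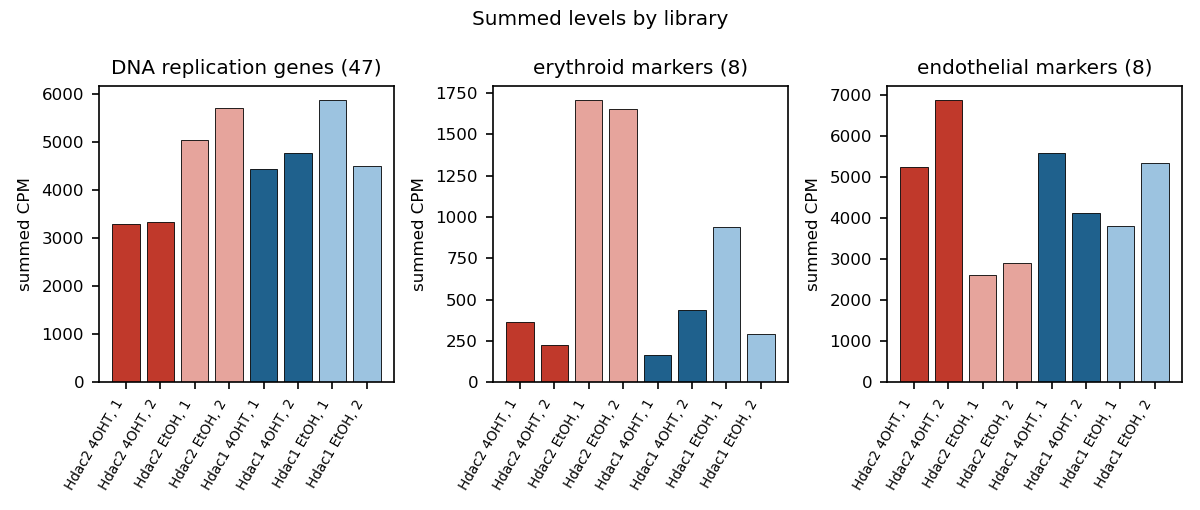
Summed CPM of the 47 DNA replication genes, of 8 erythroid markers and of 8 endothelial markers in each library (bars, from 0). The replication and erythroid sums are low in both Hdac2 4OHT libraries and high in both Hdac2 EtOH libraries, while the endothelial sum runs the other way in that line.

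In the Hdac1 line, which asks the same question of Hdac1, no replication gene passed the test and neither did any other gene, so that 0% were called higher and 0% lower. By edgeR 947 genes had an unadjusted p under 0.05, none of them a member, while DESeq2 called 32 genes and edgeR without a filter on low counts 4, again none of them a member, and limma-voom called 0. The median log2 fold change of the members was -0.23, and 44 of 47 had a value below 0. Both 4OHT libraries lay below both EtOH libraries in 10 members, beside 15.4% of all genes. Orc3, at 27.1 and 27.3 CPM with 4OHT and 36.6 and 34.1 CPM with EtOH, had the smallest p of the members there (-0.38 ± 0.16 SE, adjusted p = 0.744). The value of the median rests on Hdac1 lox/lox EtOH replicate 1, in which 45 of 47 members lay above their own mean over the 8 libraries, against 24 in replicate 2. Without that library the median was 0.02, and without replicate 2 it was -0.41.

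The difference between the 4OHT effects of the Hdac2 and Hdac1 lines was tested directly. It called 4 of 14179 genes (0.0141% higher and 0.0141% lower) and no member, although 21 members had an unadjusted p under 0.05 and the median difference of the members was -0.58. Tk1 came closest, at -1.86 ± 0.41 SE (adjusted p = 0.0781), before Cdt1 at -1.28 ± 0.30 SE (adjusted p = 0.0812). Rfc1 stood at 1.19 ± 0.33 SE (adjusted p = 0.0917). DESeq2 called 1781 of 14179 genes, among them 8 members (Tk1, Cdt1, Cdc6, Mcm5, Mcm7, Gins1, Rnaseh2a and Rfc1). The length offsets called 312 of 14122 genes, among them 2 members (Tk1 and Cdt1). A replicate block with the Hdac1 4OHT numbers crossed, chosen after the data were seen, called 9 members, and its count over all genes is not given here. Without Hdac1 lox/lox EtOH replicate 1 the difference was called for some members, and without any other single library for no member. The fall in the Hdac2 line is therefore not shown to be particular to that line for any member by the main test.

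With EtOH alone the lines were compared at their starting level. Of the members 1 was higher and 1 lower in the Hdac2 line than in the Hdac1 line, where 2.91% of all genes were higher and 6.42% lower. Higher genes made up 31.1% of the calls over all genes, 20.2% of them without scaling beyond library size and 49.6% with length offsets. Tyms stood at 145 and 139 CPM in Hdac2 lox/lox EtOH and 97.9 and 76.0 CPM in Hdac1 lox/lox EtOH (log2 difference 0.70 ± 0.16 SE, adjusted p = 0.0414). Rfc1 stood at 34.8 and 40.9 CPM in Hdac2 lox/lox EtOH and 88.1 and 124 CPM in Hdac1 lox/lox EtOH (-1.49 ± 0.24 SE, adjusted p = 0.0219). This comparison and the 4OHT comparison of the Hdac2 line share the Hdac2 EtOH libraries, in which Rfc1 was low. Over all members the median was 0.06. Neither call survived without Hdac2 lox/lox EtOH replicate 1 or 2, Hdac1 lox/lox EtOH replicate 2 or Hdac2 lox/lox 4OHT replicate 1. That of Tyms was also lost without each of the other 4OHT libraries. Both calls stayed without Hdac1 lox/lox EtOH replicate 1.

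Some members share sequence with other genes, so their counts are less certain. A near-identical copy, at 90% identity or more over at least 25% of the transcript, exists for 9 members, and 6 of these copies are in the count table (those of Cdc6, Mcm4, Pcna, Rfc5, Rnaseh2a and Rpa3). With the counts of the copies added to the member, the same 35 members were called. In addition, 10 members (Orc2, Orc4, Rfc5, Mcm7, Lig1, Rnaseh2a, Gins2, Cdc45, Rfc4 and Chaf1a) overlap a gene on the opposite strand that holds at least 10% of the member's count. The library kit keeps the strand, but no source used here says whether the counting used it. Reads in the stretch that both genes share can therefore not be told apart. That stretch runs from 64 bases (Mcm7 with Cops6) to 19046 bases (Orc2 with Nif3l1), and the reads within it were not counted.

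Other genes of the same process were read from 6 lists. Of 33 other fork and origin genes 6 fell and 3 rose with 4OHT in the Hdac2 line, with a median of -0.27. These are 18.2% lower and 9.09% higher, beside 17.2% lower and 18.9% higher over all genes, so the share that fell was near the background. Dna2, a nuclease of Okazaki fragments, stood at 33.8 and 38.1 CPM with 4OHT and 59.8 and 66.6 CPM with EtOH in the Hdac2 line (-0.81 ± 0.15 SE, adjusted p = 0.0116). Recql4, a helicase of origin firing, stood at 5.98 and 7.29 CPM with 4OHT and 13.9 and 16.4 CPM with EtOH in the Hdac2 line (-1.19), and Tipin, of the fork protection complex, at 43.8 and 45.7 CPM with 4OHT and 72.9 and 82.1 CPM with EtOH in the Hdac2 line (-0.79). The genes that rose were Top1 (0.75), Top2b (1.12) and Clspn (0.86), which encode topoisomerases and claspin. Values of the lists are without length offsets unless stated. Over other tested genes 54.1% rose in the longest bin of transcript length, and 2.9% in the shortest. Of 22 other nucleotide supply genes 14 fell and 1, Ctps, rose (63.6% and 4.55%), with a median of -0.73. Shmt2, the mitochondrial serine hydroxymethyltransferase that feeds thymidylate synthesis, stood at 70.8 and 71.7 CPM with 4OHT and 291 and 282 CPM with EtOH in the Hdac2 line (-2.01 ± 0.27 SE, adjusted p = 0.0081). Gart, of purine synthesis, stood at 151 and 132 CPM with 4OHT and 297 and 339 CPM with EtOH in the Hdac2 line (-1.17). Dut, which removes dUTP, changed by -1.21.

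Of 10 other genes of chromatin replication 6 fell (60%), among them Asf1a (-0.81), Asf1b (-0.99) and Rbbp4 (-0.78), which handle histones, and Hat1 (-0.86), which acetylates them. Dnmt1, the maintenance methyltransferase, rose (0.66 ± 0.16 SE, adjusted p = 0.0201). Of 18 genes for cyclins, cell cycle kinases and their regulators 8 fell (44.4%) and none rose. The list mixes genes that drive the cycle with inhibitors (Cdkn1a, Cdkn1b, Cdkn1c, Cdkn2c and Cdkn2d). It also holds G1 genes such as Ccnd3, so its count is not one of S phase genes alone. Ccnd3 stood at 315 and 310.2 CPM with 4OHT and 647 and 607 CPM with EtOH in the Hdac2 line (-1.004), and Ccna2, the cyclin of S phase and G2, at 176 and 193 CPM with 4OHT and 321 and 412 CPM with EtOH in the Hdac2 line (-0.99). The checkpoint kinase gene Chek1 changed by -1.05 and Ccne2 by -0.81. Of 19 E2F, pocket protein and MuvB genes 3 fell and 4 rose, with a median of 0.06. These are 15.8% lower and 21.1% higher, near the shares over all genes in both directions. E2f2, an activating E2F, stood at 12.3 and 17.4 CPM with 4OHT and 31.9 and 32.5 CPM with EtOH in the Hdac2 line (-1.12 ± 0.23 SE, adjusted p = 0.014), and E2f5 changed by -0.74. E2f7, a repressive E2F, stood at 61.5 and 71.4 CPM with 4OHT and 31.2 and 37.1 CPM with EtOH in the Hdac2 line (0.96 ± 0.24 SE, adjusted p = 0.0223), and Rb1, a pocket protein that restrains E2F, changed by 1.17. Of 30 mitosis genes 10 fell, among them Ccnb1 (-1.12) and Aurkb (-1.08), and 4 rose. These are 33.3% lower, above the 17.2% over all genes, and 13.3% higher, below the 18.9% over all genes. Mki67, the Ki-67 gene, stood at 387 and 719.8 CPM with 4OHT and 81.9 and 120.2 CPM with EtOH in the Hdac2 line (2.45 ± 0.39 SE, adjusted p = 0.00868), and Cenpe, a kinetochore motor gene, at 119 and 162 CPM with 4OHT and 29.9 and 31.6 CPM with EtOH in the Hdac2 line (2.19). In Hdac1 lox/lox EtOH Mki67 stood at 557 and 871 CPM and Cenpe at 119 and 185 CPM, so for both genes the Hdac2 EtOH libraries were the ones that stood apart, as for Rfc1. With length offsets Mki67 stood at 1.22 and Cenpe at 1.17.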

How the data were processed

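RNA-seq libraries were made from total RNA with a strand-specific kit, per the labels. The authors deposited raw read counts per gene, with no normalization, and processing was to mouse build mm10, per the submitters' processing notes. Those notes also name edgeR 3.8.5, R 3.1.0, SAMtools 0.1.19, Bowtie2 2.2.1 and bcl2fastq 2.17.1.14 without a role. For the counting program, the annotation and the strand setting, the sources name nothing.

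The counts of all 8 libraries were fitted together with a mean for each of the 4 groups by edgeR 4.0.16 (R 4.3.3), with TMM scaling, filterByExpr by group and the robust quasi-likelihood F test. Benjamini-Hochberg adjustment ran over the 14179 genes tested, and all 47 members passed the filter. Standard errors are the log2 fold change divided by the square root of F. A count of 3 in a library equals 0.150 to 0.287 CPM. Alternatives were other scalings, no filter, DESeq2 1.42.0, limma 3.58.1 (voom), each line alone, the replicate number as a block, and leaving out each library. Length and GC offsets, added copies and a crossed pairing were added after the data were seen. Transcript lengths came from GENCODE M21 (GRCm38), and copies from BLAST 2.17.0 on its transcripts. Overlaps and neighbours came from the gene coordinates of the deposited count table. Promoters came from RefSeq (GRCm38.p6), and figures from matplotlib 3.10.9 (Python 3.11.15). On simulated counts without a length trend the main fit recovered the median of known changes. With a simulated length trend, less steep than that of the Hdac2 line, only the fit with length offsets was required to do so. The check therefore does not cover the main fit under the length trend of these data.

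The members and lists were chosen with earlier results of these data known. In each step, values in every library are given for up to 4 members with the lowest fold change in the Hdac2 line and for the 1 with the highest, for members called in any other comparison or against the common direction, and, chosen for their roles or their p after values were seen, for Orc1, Pcna and Orc3. For each further list up to 4 genes with the smallest adjusted p are named, except a gene that is not reported here, and genes called against their list's direction were added after their values were seen.

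Whether replicate numbers, shared between groups in the labels, pair the libraries was not settled. In the Hdac1 line the deviations of same-numbered libraries from their group means correlated at -0.688, so libraries of unlike number were more alike there. With 2 libraries per group, any shared variation gives such a value, so it does not show a pairing. The main fit used no block. A line without lox sites treated with 4OHT was not analysed here.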

Additional observations from a re-analysis of the deposited data

How the results depend on the processing

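In the Hdac2 line the members' median lay between -0.86 (upper quartile scaling) and -0.65 (length offsets with 1 library left out) under every alternative run, and 43 to 46 of 47 members lay below 0 in those that did not combine offsets with a left-out library. Upper quartile scaling moved the median of all genes from -0.02 to -0.15, no scaling to -0.14 and length offsets to -0.09. Leaving out a library gave 0 to 6422 genes and 0 to 40 members called, and 10 to 37 members with length offsets. Where 1 library remained in a group its spread was taken from the other groups. In the Hdac1 line 4 genes were called with no filter and 32 by DESeq2, and the median ranged from -0.41 to 0.019 without a library. The difference of effects called 11 genes without scaling, 1187 with no filter (7 members), 1781 by DESeq2 (8 members), 1 by limma-voom, 312 with length offsets (2 members), 369 with length and GC offsets (3 members), 7 with length offsets and the block, and 0 to 3740 (0 to 23 members) without a library. The EtOH comparison called 2064 genes with no filter, 2801 by DESeq2 (5 members), 2347 with length offsets (4 members), 2432 with length and GC offsets (4 members), and 1 to 3871 (0 to 10 members) without a library, with a median from -0.17 to 0.27. The causes were not tested. Same-numbered libraries correlated at 0.264 in the Hdac2 line and -0.688 in the Hdac1 line, and from -0.12 to 0.17 otherwise. In the Hdac1 line libraries of unlike number were thus more alike, which with 2 libraries per group does not show a pairing. With the replicate block 3624 genes and 25 members were called in the Hdac2 line, 3857 and 31 with length offsets and the block, 0 in the difference, and 184 and 1 in the EtOH comparison. The numbers of the Hdac1 line were also crossed, a choice made after these data were seen. That fit called 0 genes in the Hdac1 line, 9 members in the difference of effects and 6 in the EtOH comparison. Orc4 reversed in the Hdac2 line to -0.11 and -0.10 with upper quartile and no scaling, to -0.26, -0.15 and -0.26 with length, length and GC, and length with block, and ranged from -0.12 to 0.20 without a library. With the same 3 offsets Pole reversed to -0.72, -0.72 and -0.72, and Chaf1a to -0.48, -0.47 and -0.48. In the Hdac1 line Rfc1 reversed to 0.0028 with limma-voom, 0.0027 in the line alone and 0.021 with the block, and ranged from -0.23 to 0.25 without a library, as Tk1 did from -0.70 to 0.12. Each member had 88 or more counts in every library.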
